A study of Mus musculus with 6 samples.

Results

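The neuronal intermediate filament genes are *Nefl*, *Nefm*, *Nefh*, *Ina* and *Prph*, 5 of the 43346 Ensembl mouse genes in the tables. They were chosen as a gene family by symbol and not by a measured value, but with earlier results of these data known. All 5 were expressed highly enough to be tested. RNA was sequenced from retinal ganglion cells (RGCs), the projection neurons of the retina, from C57BL/6 mice, purified by immunopanning on CD90.1 (Thy1) and cultured with forskolin, BDNF and CNTF. Control cultures received an AAV encoding EGFP, the second group received an AAV encoding Sox11 and EGFP, and the third received an AAV encoding Sox11 K91A and EGFP, in which the lysine of Sox11 at position 91, a site of SUMO attachment, is replaced by alanine. Wells held 250000 cells, virus was added 4 h after plating at 100000 vector genomes per cell, and RNA was extracted from them at 72 h, with 2 replicates per group and 6 libraries in all. The age is given as embryonic day 18 for the RNA-seq and postnatal day 2 for the general culture, while the tables are named for postnatal day 0, and the age of these cells could not be settled. The promoter of the AAVs is not given in the sources used here, and the control cultures expressed *Sox11* of their own. The methods speak of quadruplicate wells and of 3 RNA samples sequenced in duplicates. Whether the 2 replicates of a group came from 1 RNA sample or from separate cultures or animals is not stated. Counts of *Gad1* were 1011 and 109 in the control libraries, 480 and 74 with Sox11, and 635 and 501 with Sox11 K91A. Those of the Y-linked *Eif2s3y* were 214 and 969, 347 and 1124, and 406 and 346 in the same order. The source of these differences between replicates was not tested, and p-values measure only the spread between these libraries.

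Intermediate filaments fill the axon alongside microtubules, and in neurons they set axon caliber and with it conduction speed. The neurofilament light chain NF-L is the core subunit on which filaments assemble, the medium and heavy chains NF-M and NF-H add long phosphorylated tails, and α-internexin and peripherin co-assemble with them. In development α-internexin is used early, NF-L and NF-M follow, and NF-H comes late with axon maturation. Peripherin is best known from peripheral neurons and is also found in subsets of central neurons.

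*Nefl* (chr14:68083863-68089095, plus strand, 4 exons) and *Nefm* (chr14:68082590-68124846, minus strand, up to 4 exons) are neighbours on chromosome 14 of GRCm38 (mm10), and exons of *Nefm* overlap 1108 of the 3380 exonic bases of *Nefl* on the opposite strand. *Nefh* lies at chr11:4938754-4948064 (minus strand, 4 exons), *Ina* at chr19:47014698-47025327 (plus strand, 3 exons) and *Prph* at chr15:99055174-99058978 (plus strand, up to 9 exons). Exons of *Ina* share 456 of 3240 bases with *Nt5c2* on the opposite strand, to which 1883 to 2460 counts per library were given. Use of strand in the counting is not stated, so reads in these overlaps cannot be told apart without it. The standard deviation that the authors' counting gave for the count of *Nefl* was 17.8 to 30.7 counts in each library, small beside at least 72537 counts, and the same value was given for *Nefm*.

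Promoter sequences of *Ina*, the member that rose, and *Prph*, the most variable member, were used, and those of *Nefl*, *Nefm* and *Nefh* were not analysed here. Both are shown up to the annotated start site (250 bases, RefSeq, GRCm38.p6, plus strand). *Ina* lies at chr19:47014431-47014680 and *Prph* at chr15:99054924-99055173. Capitals mark a match to 1 of the 3 motifs searched on both strands, which were AACAAT and AACAAAG, both of the kind that Sox proteins bind, and the TATA box TATAAA.
Ina: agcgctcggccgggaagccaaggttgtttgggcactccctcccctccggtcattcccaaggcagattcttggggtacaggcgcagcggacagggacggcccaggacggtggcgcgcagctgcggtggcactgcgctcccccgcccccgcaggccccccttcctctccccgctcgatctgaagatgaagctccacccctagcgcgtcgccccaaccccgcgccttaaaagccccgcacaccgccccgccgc
Prph: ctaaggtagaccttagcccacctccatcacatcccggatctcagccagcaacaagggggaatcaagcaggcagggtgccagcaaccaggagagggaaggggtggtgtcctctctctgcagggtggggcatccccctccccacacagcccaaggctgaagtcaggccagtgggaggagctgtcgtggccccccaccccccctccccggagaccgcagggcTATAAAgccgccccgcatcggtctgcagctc
The window of *Prph* held TATAAA starting 31 bases before the start site, which 12.4% of 32851 promoter windows of this length held. Neither window held AACAAT or AACAAAG, which 9.4% and 5.0% of windows held. *Ina* had the richer sequence, with 70.8% G and C and 25 CpG sites, against 65.2% and 7 in *Prph* and medians of 52.4% and 6 over all windows.

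Expected counts per library came to between 27521981 and 37061718, and limma-voom tested 15747 genes in a single fit of all 6 libraries. Genes were called differentially expressed at an FDR under 0.05 with an absolute fold change above 1.2, and log2 fold changes are given ± SE. *Sox11* itself was at 234 and 332 CPM (counts scaled to a common library size) with the control AAV, at 9178 and 14590 CPM with Sox11, and at 11970 and 7026 CPM with Sox11 K91A. The gene table does not separate viral from endogenous transcripts, and the levels of the Sox11 and Sox11 K91A libraries overlapped. On the second principal component, with 19.8% of the variance, the second replicates of control and of Sox11 were separated from the remaining 4 libraries, and these 2 had the lowest *Xist* at 95.9 and 254 CPM against 400 to 526 CPM, and higher levels of the Y-linked *Eif2s3y*, at 25.1 and 33.9 CPM against 7.66 to 12.6 CPM, and *Ddx3y*, at 30.0 and 29.9 CPM against 16.2 to 17.8 CPM. Both are called the separated libraries below. RGC markers were all detected, with *Rbpms* at 194 to 242 CPM. Of the markers of other cell types, *Gfap*, *Tyrobp*, *Rcvrn* and *Olig2*, of glia, microglia, photoreceptors and oligodendrocytes, had 0 counts in every library, while others on the same lists were detected, with *Glul* at 97.2 to 310 CPM, *Mbp* at 25.2 to 48.5 CPM and *Aif1* at up to 1.13 CPM.

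With Sox11, 4 of the 5 filament genes were differentially expressed, 3 lower and 1 higher, where 20.1% of all genes tested were called, 10.2% lower and 9.96% higher. *Nefh* fell most among them, *Nefm* and *Nefl* followed, and *Ina* rose. With Sox11 K91A, *Nefm* and *Nefh* fell and *Ina* rose, where 10.6% of all genes tested were called, 4.81% lower and 5.81% higher. *Prph* passed the threshold in neither comparison. Both comparisons use the same control libraries and are not independent of each other. In bulk RNA, fewer cells of a type and less RNA per cell cannot be told apart.

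The calls rested on few libraries, while every direction against control was kept in each alternative analysis. Without replicate 2 of Sox11, limma-voom called 0 of the 5 genes with Sox11, although 4 had an unadjusted p under 0.05, and it called 0 genes in all, with log2 fold changes of -0.70 for *Nefl* (adjusted p = 0.212), -1.27 for *Nefm* (0.0912), -2.22 for *Nefh* (0.0747) and 1.03 for *Ina* (0.106). Without replicate 2 of the control, fewer of the 5 passed with either virus, and fewer of all genes did too. The log2 fold changes with Sox11 were then -1.24 for *Nefl*, -1.71 for *Nefm*, -3.05 for *Nefh* and 0.98 for *Ina*. With Sox11 K91A they were -0.95, -1.33, -2.665 and 0.87. Fewer of the 5 and of all genes passed with Sox11 K91A without its replicate 1 or without its replicate 2 as well. In the same order of genes, its log2 fold changes were -0.63, -1.08, -2.095 and 0.94 without replicate 1. Without replicate 2 they were -1.12, -1.63, -2.52 and 1.15. Without both separated libraries, 3 were called with Sox11 and 5 with Sox11 K91A, where the spread came from the Sox11 K91A pair alone and the lone control and Sox11 libraries were assumed to vary like it. In that fit 13.1% and 25.8% of all genes were called, against 20.1% and 10.6% with all 6 libraries, so the count with Sox11 K91A rose for all genes too.

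**Figure D1:**
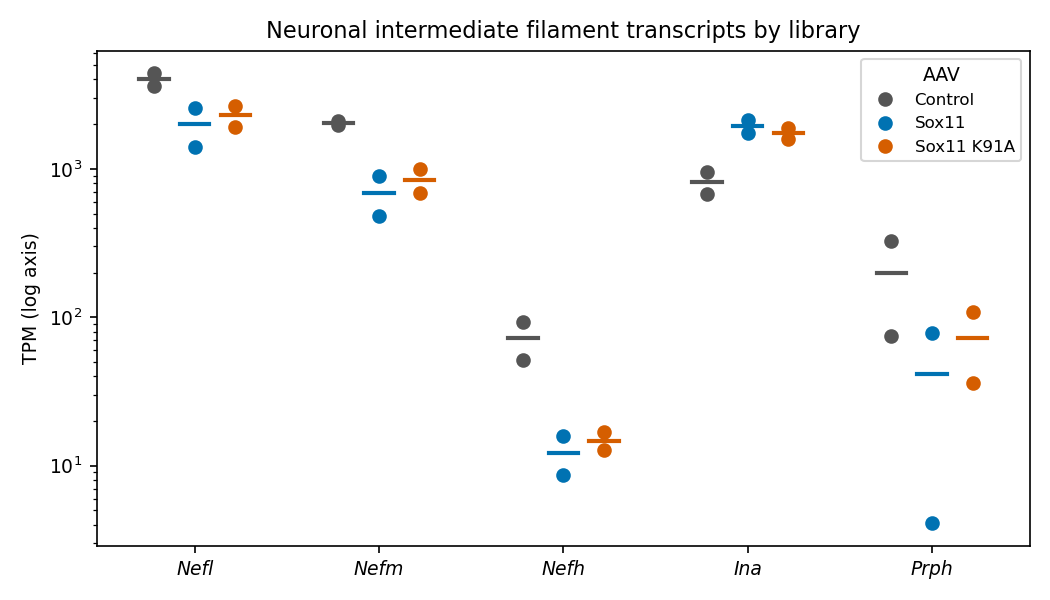
TPM, the transcript level per length (log axis), of the 5 filament genes in each of the 6 libraries, with a point for each library and a line at each group mean. The control libraries lie above all others for *Nefl*, *Nefm* and *Nefh* and below all others for *Ina*, and *Prph* spreads most, from 4.10 to 325 TPM.

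*Nefl*, which encodes the core subunit NF-L, was the most abundant member in control cells. Its level was 4406 and 3607 TPM in the control libraries, 2587 and 1398 TPM with Sox11, and 1917 and 2660 TPM with Sox11 K91A. TPM divides by transcript length, and on this scale *Nefl* ranked 8th and 15th of all genes in control libraries and between 26th and 54th in the others. Both control libraries were above all 4 of the others, and the Sox11 and Sox11 K91A libraries overlapped. For 30.6% of all genes both controls lay above the 2 Sox11 libraries. *Nefl* fell with Sox11 by 1.16 ± 0.31 on the log2 scale (2.24-fold lower, adjusted p = 0.0437), and this call was lost in 10 of 19 alternative analyses. With Sox11 K91A the change was -0.87 ± 0.32 and did not pass (adjusted p = 0.118), although the groups did not overlap, as held for 30.7% of all genes in that direction.

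*Nefm* encodes the medium chain NF-M, whose tail lies in the space between filaments. It was measured at 2106 and 1972 TPM in the control libraries, at 894 and 484 TPM with Sox11, and at 687 and 995 TPM with Sox11 K91A. The control libraries again lay above the other 4, and the groups of the 2 viruses overlapped. Taking each virus alone, both controls lay above its 2 libraries for 30.6% of all genes with Sox11 and 30.7% with Sox11 K91A. *Nefm* fell by 1.72 ± 0.32 on the log2 scale with Sox11 (3.30-fold lower, adjusted p = 0.0180) and by 1.35 ± 0.32 with Sox11 K91A (2.56-fold lower, adjusted p = 0.0437). The second call was lost in 7 of 19 alternatives.

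*Nefh*, which encodes the heavy chain NF-H of mature axons, was the least abundant member in control libraries, at 93.2 and 51.9 TPM. It fell to 15.8 and 8.67 TPM with Sox11 and to 12.7 and 16.8 TPM with Sox11 K91A, with all 4 below both control libraries. Taking each virus alone, its 2 libraries lay below both controls for 30.6% of all genes with Sox11 and 30.7% with Sox11 K91A. The counts behind these levels were 5002 and 4206 in the control libraries, 823 and 538 with Sox11, and 789 and 953 with Sox11 K91A. The log2 fold change was -2.69 ± 0.35 with Sox11 (6.45-fold lower, adjusted p = 0.0116) and -2.31 ± 0.34 with Sox11 K91A (4.97-fold lower, adjusted p = 0.0190). In rank among all genes *Nefh* moved from 2228th and 3566th in the control libraries to between 7785th and 9651st in the other libraries.

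*Ina*, which encodes α-internexin, went the other way. Its level was 958 and 680 TPM in the control libraries, 1745 and 2147 TPM with Sox11, and 1872 and 1598 TPM with Sox11 K91A. Both control libraries were below all 4 of the others. Taking each virus alone, both controls lay below its 2 libraries for 30.9% of all genes with Sox11 and 31.2% with Sox11 K91A. *Ina* rose by 1.17 ± 0.19 on the log2 scale with Sox11 (2.24-fold higher, adjusted p = 0.0146) and by 1.04 ± 0.19 with Sox11 K91A (2.06-fold higher, adjusted p = 0.0263). In replicate 2 of Sox11, *Ina* had a higher TPM than *Nefl*, and in each of the other 5 libraries it was below *Nefl*.

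*Prph*, which encodes peripherin, had the widest spread within groups of the 5 genes. It was at 325 and 74.8 TPM in the control libraries, at 78.4 and 4.10 TPM with Sox11, and at 36.3 and 109 TPM with Sox11 K91A. On this scale the lower control library was below the higher Sox11 library, and the low value of replicate 2 of Sox11 rested on 104 counts. The log2 fold change was -3.36 ± 1.30 with Sox11 (adjusted p = 0.108) and -1.38 ± 1.09 with Sox11 K91A (adjusted p = 0.442). With a covariate for the separated libraries, an analysis added after the data were seen, *Prph* passed with Sox11 at -2.80 (adjusted p = 0.0241). It also passed there with Sox11 K91A at -2.72 (adjusted p = 0.0424). More of all genes were called in these fits, 29% and 18.4%, against 20.1% and 10.6% without the covariate.

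**Figure D2:**
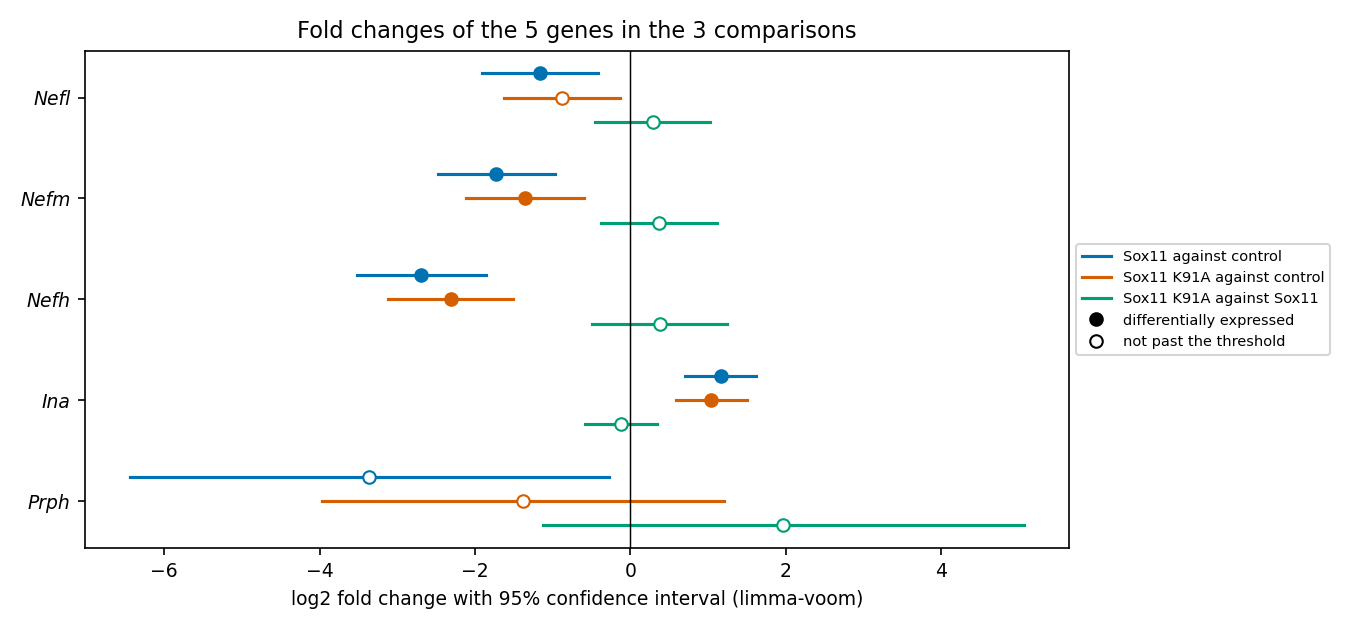
Log2 fold change of each filament gene in the 3 comparisons (x axis, limma-voom), with bars for the 95% confidence interval and filled points for differentially expressed genes. Intervals against control lie below 0 for *Nefl*, *Nefm* and *Nefh* and above 0 for *Ina*, and all 5 intervals of Sox11 K91A against Sox11 include 0.

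Sox11 K91A was compared directly with Sox11 to ask whether the change at lysine 91 altered the response. Of the 5 filament genes, limma-voom called 0, and 0 had an unadjusted p under 0.05. Over all genes limma-voom called 0%, and 108 genes (0.686%) had an unadjusted p under 0.05. Both edgeR and DESeq2 also called 0 of the 5, and over all genes edgeR called 0 and DESeq2 called 2 (0.0127%). The log2 difference of Sox11 K91A minus Sox11 was 0.29 for *Nefl* (95% interval -0.45 to 1.03), 0.37 for *Nefm* (-0.38 to 1.11), 0.38 for *Nefh* (-0.49 to 1.25), -0.12 for *Ina* (-0.58 to 0.34) and 1.97 for *Prph* (-1.12 to 5.07). The groups overlapped for every member. The interval of *Ina* was the narrowest, and that of *Prph* leaves large differences in either direction within it.

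The make-up of the family was compared as each gene's share of their summed TPM. *Nefl* made 55.9% and 56.5% of the summed filament TPM in the control libraries, and between 34.6% and 49.5% in the others. *Ina* made 12.1% and 10.6% in the control libraries, 32.8% and 53.1% with Sox11, and 41.4% and 29.7% with Sox11 K91A. The share of *Ina* was 11.4% ± 1.06 (SD, n = 2) in control, 43.0% ± 14.4 (n = 2) with Sox11 and 35.6% ± 8.25 (n = 2) with Sox11 K91A. *Nefm* made 26.7% and 30.9% in the control libraries and at most 18.5% in the others.

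*Nefh* made 1.18% and 0.813% of the filament TPM in the control libraries, 0.297% and 0.215% with Sox11, and 0.281% and 0.312% with Sox11 K91A. The groups of either virus lay below the controls without overlap. In an exact two-sided permutation test the p was 0.3333 for each virus against control, the smallest that 2 libraries against 2 can give. The shares of the 2 viruses overlapped (exact permutation p = 0.667).

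**Figure D3:**
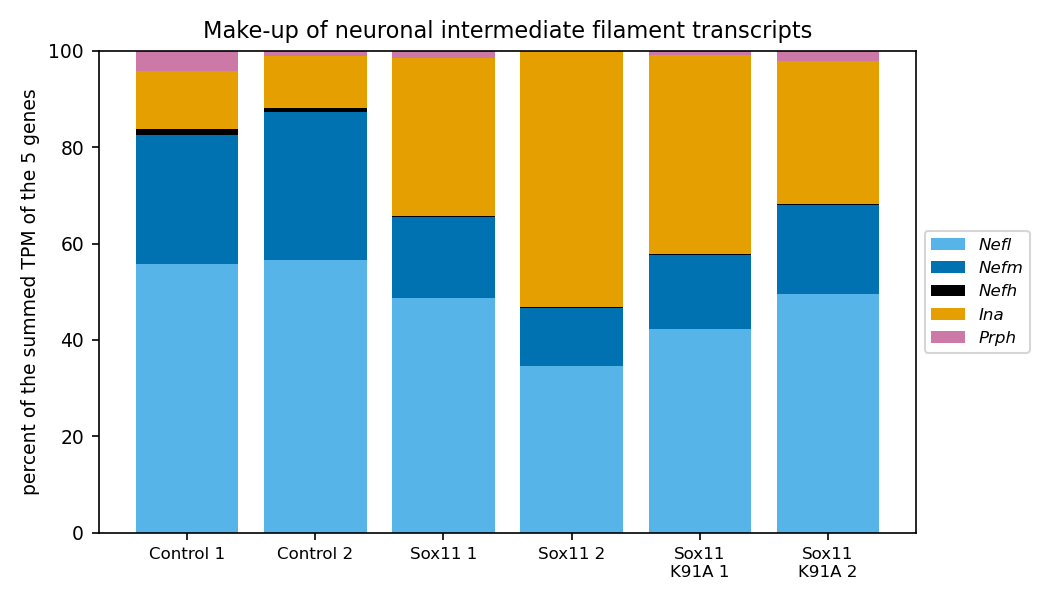
Share of each filament gene in the summed TPM of the 5 genes (y axis, percent), with a stacked bar for each of the 6 libraries. *Ina* takes 10.6% to 12.1% of the control bars and 29.7% to 53.1% of the others.

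Within the neurofilament triplet, ratios to *Nefl* varied less across the 4 libraries with a Sox11 virus than the levels did. The TPM ratio of *Nefm* to *Nefl* was 0.478 and 0.547 in the control libraries, 0.346 in both Sox11 libraries, and 0.358 and 0.374 with Sox11 K91A. The ratio of *Nefh* to *Nefl* was 0.0211 and 0.0144 in the control libraries and between 0.0061 and 0.0066 in the others. Over the same 4 libraries *Nefl* itself ranged from 1398 to 2660 TPM. Both ratios were a little higher with Sox11 K91A than with Sox11, without overlap (exact permutation p = 0.3333, the smallest possible).

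Summed over the 5 genes, filament transcripts came to 7887 and 6385 TPM in the control libraries, 5321 and 4041 TPM with Sox11, and 4524 and 5379 TPM with Sox11 K91A. Summed TPM of 9 tubulin genes, which encode the subunits of microtubules, was 12090 to 13270 in control and 15150 to 16920 in the others. The log2 ratio of filament to tubulin TPM was -0.84 ± 0.12 (SD, n = 2) in control, -1.75 ± 0.22 (n = 2) with Sox11 and -1.76 ± 0.15 (n = 2) with Sox11 K91A. Both groups lay below the control without overlap (exact permutation p = 0.3333, the smallest possible), and they overlapped each other.

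The 4 libraries with either Sox11 virus were also put in order of their *Sox11* level. From the lowest to the highest *Sox11*, the order was Sox11 K91A replicate 2, Sox11 replicate 1, Sox11 K91A replicate 1 and Sox11 replicate 2. *Ina* had the same order, at 2485, 2645, 2889 and 3211 CPM. *Nefh* had the opposite order, at 32.7, 30.0, 24.5 and 16.2 CPM, and so did *Nefl*, *Nefm* and *Prph*. Of all genes tested, 12.5% had the same order as *Sox11* and 13.9% the opposite order. These are 4 libraries ordered after the fact, and replicate 2 of Sox11, one of the separated libraries, holds the end of the order.

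**Figure D4:**
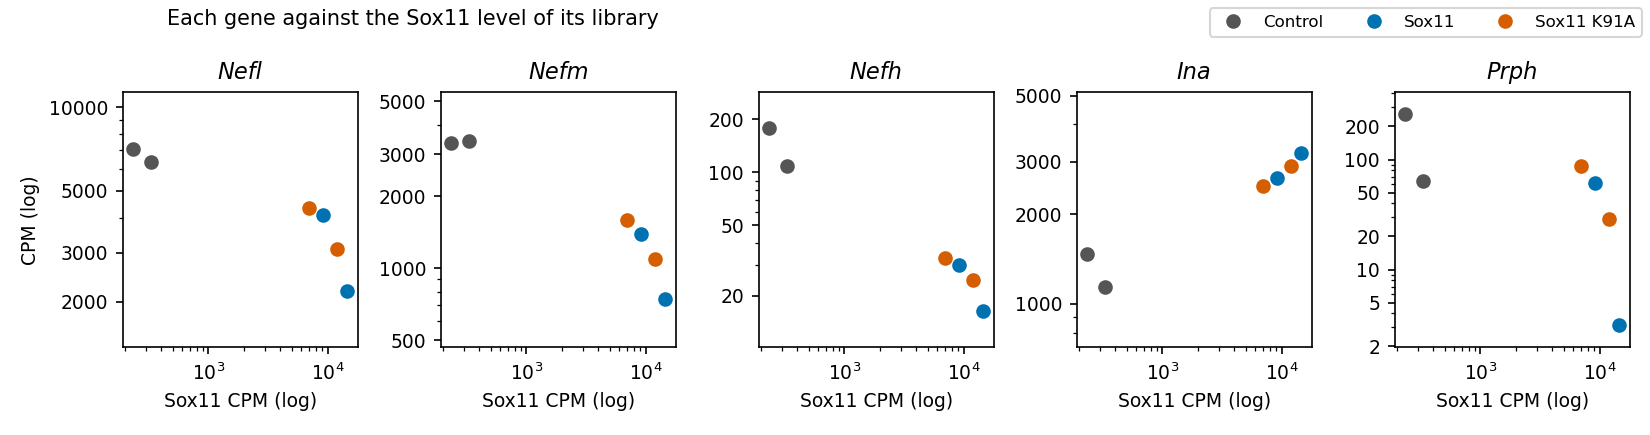
Level of each filament gene (CPM, log axis) against the level of *Sox11* (CPM, log axis) in the 6 libraries, coloured by group. Among the 4 libraries with a Sox11 virus, *Ina* increases and the other 4 genes decrease as *Sox11* goes from 7026 to 14590 CPM.

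The members were compared with each other, and with 9641 other genes of at least 10 CPM, by the root-mean-square difference of their centred log2 CPM over the 6 libraries. *Nefl* and *Nefm* differed by 0.255, *Nefm* and *Nefh* by 0.496, and *Ina* differed from the other members by 1.09 to 2.33. Although neighbours on the chromosome, *Nefl* and *Nefm* were not each other's closest genes, since 528 genes were closer to *Nefl* than *Nefm* was. The closest genes were *Lrrc73* (0.0575) and *Btbd6* (0.0583) for *Nefl*, *Tpi1*, an enzyme of glycolysis (0.0578), and *P4htm* (0.0654) for *Nefm*, and *Rasgrf1* (0.104) and *Unc80* (0.128) for *Nefh*. *Ina* was closest to *Bcl9*, a cofactor of β-catenin (0.0197), and *Zfp41* (0.0338), and *Prph* was closest to *Rasgrp1* (0.459) and *Tnfrsf1a* (0.48).

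Other intermediate filament genes gave a mixed picture. Of the 15 listed, 9 were tested, and 1 rose and 3 fell with Sox11 while 1 rose and 2 fell with Sox11 K91A, or 2 and 3 without the separated libraries. With all 6 libraries, 44.4% of the 9 were called with Sox11 and 33.3% with Sox11 K91A, beside 20.1% and 10.6% of all genes. The median log2 fold change of the 9 was -0.12 with Sox11 and 0.23 with Sox11 K91A, beside medians of 0.01 and 0.02 over all genes. Among the lamins, which line the nucleus, *Lmnb1* rose from 25.8 and 26.1 CPM to 59.3 and 75.9 CPM with Sox11 (log2 1.37, adjusted p = 0.0121) and to 67.1 and 54.4 CPM with Sox11 K91A (1.22, adjusted p = 0.0199). *Lmna*, the lamin of more differentiated cells, fell from 109 and 114 CPM to 47.5 and 29.8 CPM with Sox11 (-1.58, adjusted p = 0.0127) and to 36.6 and 44.6 CPM with Sox11 K91A (-1.47, adjusted p = 0.0199). *Nes*, the filament of neural progenitors, fell by 1.44 with Sox11 (adjusted p = 0.0200) and by 1.27 with Sox11 K91A (adjusted p = 0.0351). *Des*, the desmin of muscle, was below 2.1 CPM in every library and fell by 3.02 with Sox11 (adjusted p = 0.0403).

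Genes that act on filaments were listed by role, and their counts stand beside the 20.1% and 10.6% of all genes called with Sox11 and Sox11 K91A, or 13.1% and 25.8% without the separated libraries. Of 9 motor subunits, *Dync1i1*, an intermediate chain of dynein, fell by 2.71 on the log2 scale with Sox11 (adjusted p = 0.0145) and by 2.10 with Sox11 K91A (adjusted p = 0.0278), and the other 8, with the kinesin heavy chains of the Kif5 family that carry neurofilaments, did not pass. The share called, 11.1% with each virus, was below and near that of all genes, and the median log2 fold changes were -0.18 and -0.06. Without the separated libraries, 2 of the 9 fell with Sox11 and 4 with Sox11 K91A. Of 5 filament linkers tested, limma-voom called 0 in either comparison, with medians of 0.26 and 0.41, 2 and 1 at an unadjusted p under 0.05, none by edgeR, and 2 and 1 by DESeq2, while 2 fell in each comparison without the separated libraries.

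Of 19 kinases, phosphatases and related regulators of filament tails, 2 rose and 4 fell with Sox11, and 2 rose and 2 fell with Sox11 K91A, or 3 and 6 without the separated libraries. With all 6 libraries the calls were 31.6% and 21.1% of the list, and the medians were -0.04 and -0.05. The activators of Cdk5, a kinase of the NF-M and NF-H tails, went opposite ways. *Cdk5r1* (p35) rose by 0.88 with Sox11 (adjusted p = 0.0201) and 0.75 with Sox11 K91A (adjusted p = 0.0409), whereas *Cdk5r2* (p39) fell by 0.89 (adjusted p = 0.0188) and 0.73 (adjusted p = 0.0418). *Mapk8*, the kinase JNK1, rose by 0.82 and 0.71 (adjusted p = 0.0146 and 0.0277). *Camk2b*, a subunit of a calcium-dependent kinase, fell by 0.82 with Sox11 (adjusted p = 0.0419).

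Chaperones and enzymes of filament turnover were listed next. Of 12, 6 fell and 1 rose with Sox11, and 4 fell and 0 rose with Sox11 K91A, which is 58.3% and 33.3% of the list, with medians of -1.13 and -0.75. Without the separated libraries, 6 fell and 0 rose with Sox11, and 7 fell and 0 rose with Sox11 K91A. *Hspb8*, a small heat shock protein, was at 30.0 and 31.4 CPM with the control AAV, at 5.90 and 1.06 CPM with Sox11, and 3.85 and 6.82 CPM with Sox11 K91A. It fell by 3.69 (adjusted p = 0.0144) and 2.59 (adjusted p = 0.0283). Its partner *Bag3* fell by 2.96 and 2.54 (adjusted p = 0.0121 and 0.0192), and *Hspb1*, a chaperone of NF-L, fell by 2.88 and 2.24 (adjusted p = 0.0169 and 0.0326). *Capn1*, a calpain protease that cleaves neurofilaments, fell by 1.61 with Sox11 (adjusted p = 0.0379). *Capn2*, another calpain of the list, named after its value was seen, was more abundant, at 173.5 to 207.5 CPM. It did not pass with Sox11 (-0.03, adjusted p = 0.903). *Stub1*, a ubiquitin ligase, fell by 0.92 with Sox11 and 0.84 with Sox11 K91A (adjusted p = 0.0195 and 0.0334). The gene that rose with Sox11 was *Trim2*, a ubiquitin ligase of NF-L, named after its value was seen, by 0.58 (adjusted p = 0.0429), and it was not called without the separated libraries.

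Of 6 RNA-binding regulators of neurofilament transcripts, *Arhgef28*, whose product binds the *Nefl* transcript, was the single gene called (16.7% of the list, with medians of 0.36 and 0.19), and without the separated libraries 2 rose with Sox11 K91A. It was at 13.4 and 18.6 CPM with the control AAV, at 42.5 and 58.2 CPM with Sox11, and at 58.7 and 41.0 CPM with Sox11 K91A. It rose by 1.64 with Sox11 (adjusted p = 0.0157) and by 1.61 with Sox11 K91A (adjusted p = 0.0233). This was opposite in sign to *Nefl*, which did not pass with Sox11 K91A. Whether *Arhgef28* had a part in the level of *Nefl* was not tested.

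Axonal microtubule proteins changed in both directions. Of 18, 4 rose and 5 fell with Sox11, and 4 rose and 1 fell with Sox11 K91A (50% and 27.8% of the list, with a median of 0.32 for each virus), while without the separated libraries 9 rose and 4 fell with Sox11 K91A. *Dcx*, the doublecortin of migrating and immature neurons, rose from 300 and 263 CPM to 1185 and 1693 CPM with Sox11 and to 1285 and 1040 CPM with Sox11 K91A (2.33 and 2.04, adjusted p = 0.00753 and 0.0117). *Stmn1*, a destabilizer of microtubules, rose by 1.37 with Sox11 and 1.28 with Sox11 K91A (adjusted p = 0.0179 and 0.0295), and *Map2*, of dendrites, rose by 1.40 and 1.08 (adjusted p = 0.0161 and 0.0385). *Tuba4a*, a tubulin of mature neurons, fell by 2.71 and 1.98 (adjusted p = 0.0128 and 0.0277). *Map1a*, of mature axons and dendrites, and *Tuba1b* fell by 2.59 and 1.54 with Sox11 (adjusted p = 0.0309 and 0.0262). Across all of these lists, limma-voom, edgeR and DESeq2 called 0 genes between Sox11 K91A and Sox11, and 0 had an unadjusted p under 0.05 in limma-voom.

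**Figure D5:**
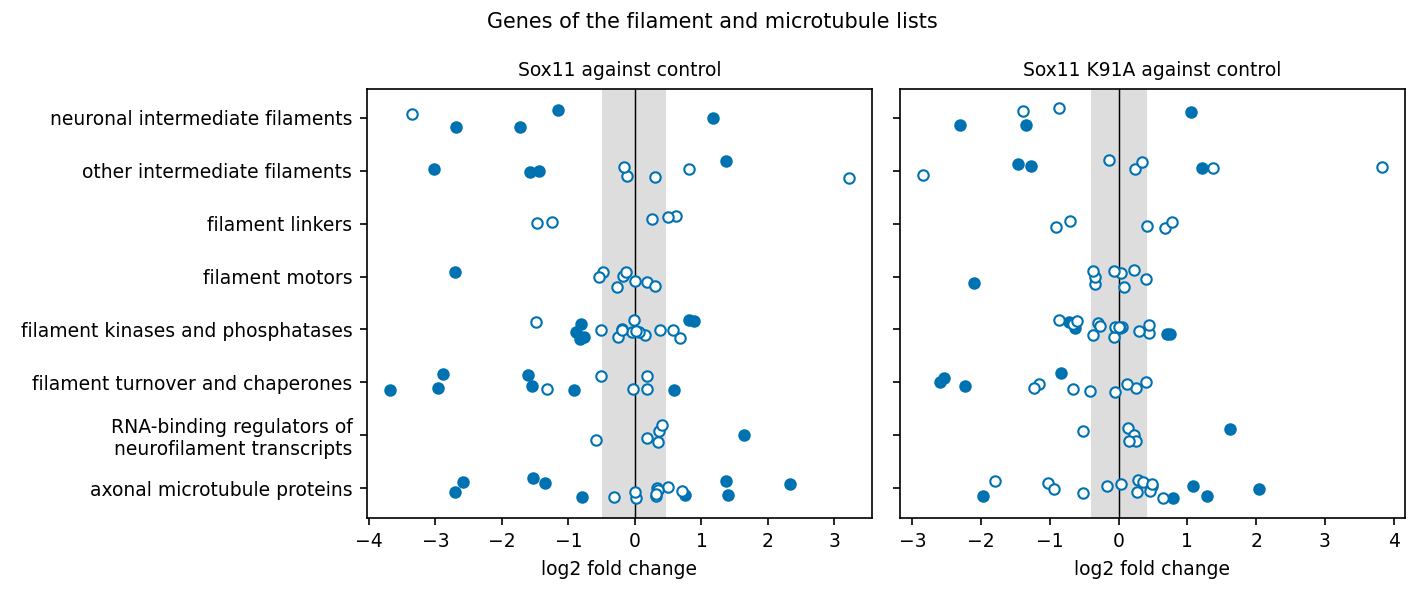
Log2 fold change (x axis) of each tested gene of the filament and microtubule lists, with Sox11 (left) and Sox11 K91A (right) against control, filled where differentially expressed, and a grey band for the middle 50% of all genes tested. The neuronal filament genes lie outside the band in both panels, with *Ina* to its right.

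Markers of the cells in the culture were set beside these changes. The summed TPM of 11 RGC markers was 4840 and 4905 in the control libraries, 4148 and 2817 with Sox11, and 3690 and 4195 with Sox11 K91A. *Sncg* made the largest part, at 2353 and 2657.5 TPM in control, 2486 and 1562 with Sox11, and 2302 and 2520 with Sox11 K91A. It did not pass with either virus (adjusted p = 0.233 and 0.803). *Thy1*, the antigen of the purification, was at 725 and 689 CPM with the control AAV, at 259 and 46.3 CPM with Sox11, and 154 and 312 CPM with Sox11 K91A, and fell with Sox11 by 2.69 (adjusted p = 0.0478). Of the 11 markers, 3 fell with Sox11 and 2 with Sox11 K91A, and none rose in the fit of all 6 libraries. This was 27.3% and 18.2% of the list, beside 20.1% and 10.6% of all genes. Without the separated libraries, in a fit with a lone control library, some of the 11 rose with Sox11 K91A and more of them fell. The markers that fell with both viruses were *Nrn1*, of neurite growth (-2.18 and -2.07, adjusted p = 0.0192 and 0.0303), and *Slc17a6*, a vesicular glutamate transporter (-0.83 and -0.85, adjusted p = 0.0193 and 0.0272). *Rbpms* and *Pou4f1*, which mark RGCs broadly, were among the 8 that did not pass with Sox11 (-0.18 and -0.17). *Thy1* had the same order as *Nefl* over the 4 transduced libraries, and whether the RGC content had a part in the filament changes was not tested.

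Among other cell types, 7 astrocyte and Müller glia markers summed to 73.1 and 83.7 TPM in the control libraries and to 205 to 250 TPM in the others. *Glul* made nearly all of this, at 97.2 to 105 CPM in control and 267 to 310 CPM in the others, while *Gfap* was at 0 throughout and *Aqp4* at most at 0.248 CPM. The other 3 tested did not pass and lay at or below 3.74 CPM. *Rlbp1* and *Slc1a3* had negative log2 fold changes (-2.51 and -2.13 with Sox11, -2.70 and -1.10 with Sox11 K91A). *Aldh1l1* had positive ones (0.88 and 1.00). Summed markers of microglia stayed between 0.45 and 3.88 TPM, of endothelial and mural cells between 1.79 and 4.93 TPM, and of photoreceptors and bipolar cells between 0.95 and 2.71 TPM. Markers of oligodendrocyte lineage and fibroblasts summed to 20.0 to 29.3 TPM, and those of amacrine and horizontal cells to 21.8 to 76.0 TPM. Of the 8 amacrine and horizontal markers, *Prox1* rose (2.85 and 2.73) and *Slc6a9* fell (-2.14 and -1.75) with Sox11 and Sox11 K91A. This was 25% of the list, beside 20.1% and 10.6% of all genes. At low levels, *Pdgfra* rose with Sox11 (2.79, adjusted p = 0.0493) and *Pecam1* with Sox11 K91A (2.03, adjusted p = 0.0468). The part of other cell types in the filament changes was not tested.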

How the data were processed

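RNA-seq was measured in 6 libraries of cultured mouse RGCs. The authors aligned reads to mm10 with STAR, counted them with RSEM, and deposited expected counts and TPM per gene, unpooled. Tool versions, annotation and use of strand are not given in the sources used here. The deposited posterior standard deviations and effective lengths were also read.

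Expected counts were rounded. In edgeR (version 4.0.16), genes were filtered with filterByExpr on the 3 groups and libraries scaled by TMM. All 6 libraries were fitted with limma-voom (version 3.58.1, in R 4.3.3) with Benjamini-Hochberg adjustment over 15747 genes, and tests were two-sided. GENCODE M21 on GRCm38 gave symbols for 42462 genes. Shares and ratios used TPM, with exact permutation tests.

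The members and lists were chosen with earlier results of these data known. Named were the 5 members, up to 4 called genes per list and comparison by largest change, and the 2 genes closest to each member, and 1 called gene of a list is not reported here. Tested on simulated data of 15747 genes with 200 changed, limma-voom recovered 16.7% of 2-fold and 66.3% of 4-fold changes in the comparison of Sox11 with control, 14.6% and 57.7% for Sox11 K91A with control, and 14.9% and 72.7% for Sox11 K91A with Sox11. Of its calls, 8.9%, 9% and 7.4% were genes not changed. Far fewer genes changed in the simulation than the 20.1% and 10.6% called against control. Adjusted p-values depend on that number, so the recovery rates do not carry over directly to those 2 comparisons. DESeq2 (version 1.42.0) and other alternatives are given in the closing section. Protein sequences were not analysed here.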

Additional observations from a re-analysis of the deposited data

How the results depend on the processing

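Deviations of same-numbered libraries from the group means correlated across 15747 genes at 0.229, -0.0281 and -0.234, so the numbers were not taken to pair the samples. With the replicate block, 4 members were called with Sox11, 3 with Sox11 K91A and 0 between them, as without it. With the numbers of Sox11 K91A exchanged, added after the data were seen, 0 were called between the viruses.

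Against control, every member kept its direction in all 19 alternatives. Leaving out 1 library, 0 to 4 members were called with Sox11 and 0 to 3 with Sox11 K91A. The share of all genes called also moved with the library left out. Sample quality weights gave 2 with Sox11, where 6.22% of all genes were called against 20.1% without the weights. Without both separated libraries 5 were called with Sox11 K91A, as with a covariate for them, which was added after the data were seen, and 25.8% and 18.4% of all genes were called in these fits against 10.6% with all 6 libraries and no covariate. With edgeR *Nefm* was not called with Sox11 K91A (adjusted p = 0.0527), and with DESeq2 *Nefl* was (adjusted p = 0.0401). The cause of these shifts was not tested. Calls were lost in 10 of 19 alternatives for *Nefl* with Sox11, and in 3 for *Nefm*, 1 for *Nefh* and 1 for *Ina*. With Sox11 K91A they were lost in 7 for *Nefm*, 2 for *Nefh* and 3 for *Ina*.

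Between Sox11 K91A and Sox11, 0 members were called in all 20 alternatives, and the sign of the difference changed in some. Leaving out 1 library gave log2 differences of -0.16 to 0.76 for *Nefl*, -0.081 to 0.84 for *Nefm*, -0.086 to 0.81 for *Nefh*, -0.25 to 0.019 for *Ina* and -0.29 to 3.99 for *Prph*, of -0.00071 to 0.0818 percentage points in the share of *Nefh*, and of -0.17 to 0.15 in the log2 filament to tubulin ratio. Without both separated libraries the differences were -0.16, -0.081, -0.089, 0.018 and -0.30 in the same order of genes, and with the covariate -0.042 for *Nefh*. Each member had at least 104 counts in every library, so counting error was small beside the spread between the 2 libraries of a group.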
